A study of Mus musculus with 16 samples.

Results

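The *Oas* and *Oasl* genes of the mouse were followed through primary hepatocytes exposed to itaconate, to lipid, or to both. The members are the 7 rows of the count table, of 55450 in all, whose gene symbol is *Oas1a*, *Oas1c*, *Oas1g*, *Oas2*, *Oas3*, *Oasl1* or *Oasl2*. The rule goes by symbol alone, and it was drawn up with earlier results of these data known. Other rows of the family were *Oas1b*, *Oas1d*, *Oas1e*, *Oas1f* and *Oas1h*, which are given by level and within a sum of all *Oas1* rows. Hepatocytes came from wild-type mice, and the methods of the study name males on a C57BL/6J background for its mouse work without a separate statement for these cultures. All 4 groups were kept overnight in DMEM with fetal bovine serum and insulin-transferrin-selenium. The groups were untreated, itaconate (10 mM sodium itaconate), lipid (a chemically defined mixture of arachidonic, linoleic, myristic, oleic, palmitic and stearic acids with cholesterol, diluted 10-fold) and lipid + itaconate, each with 4 libraries lettered A to D. Itaconate, in the body a product of activated macrophages, was thus given to hepatocytes from outside. The labels do not say that the letters are separate animals, so p-values measure only the spread between these libraries, which may be technical.

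The OAS proteins are sensors of double-stranded RNA. On binding it, the catalytically active ones link ATP into 2′-5′ oligoadenylates, second messengers that slow translation and the growth of viruses. Not every family member is an active synthetase: the mouse has many *Oas1* copies, of which *Oas1a* and *Oas1g* are regarded as active, and the OAS-like proteins carry a ubiquitin-like tail. *Oasl1* is known as a repressor of the translation of *Irf7* mRNA, and *Oasl2* as an active synthetase. The genes are classical interferon-stimulated genes, switched on by interferon signalling and by interferon regulatory factors, in hepatocytes as in most other cells.

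All members lie on chromosome 5 of GRCm38. *Oas2* (ENSMUSG00000032690.16), *Oas3* (ENSMUSG00000032661.9), *Oas1c* (ENSMUSG00000001166.17), *Oas1g* (ENSMUSG00000066861.14) and *Oas1a* (ENSMUSG00000052776.10) belong to 1 cluster of 10 genes that spans 191.3 kb from 120730333 to 120921652. *Oasl2* (ENSMUSG00000029561.17) and *Oasl1* (ENSMUSG00000041827.15) lie side by side within 41.0 kb, from 114896936 to 114937915. The distance between both clusters is 5792.4 kb. *Oas1c* and *Oas1b* are read in opposite directions from starts 121 bp apart.

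The sequences just upstream of the transcript starts are shown because interferon-responsive transcription factors are known to bind such stretches. *Oas1a*, *Oas1c*, *Oas1g* and *Oas3* carry a motif core there that was not found in *Oasl1* and *Oasl2*. The sequences come from RefSeq (GRCm38.p6), where 6 of the 7 members matched and *Oas2* had no entry. Capitals mark the core of an interferon-stimulated response element (ISRE), searched as GAAANNGAA on both strands, and bases are counted backward from the transcript start at −1. The window of *Oas1c* stops before the first base of *Oas1b*. Each stretch is written in the direction of the gene.
*Oas1a*, chr5:120907526-120907598, minus strand: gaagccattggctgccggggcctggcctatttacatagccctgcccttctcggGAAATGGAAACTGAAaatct
*Oas1g*, chr5:120887614-120887684, minus strand: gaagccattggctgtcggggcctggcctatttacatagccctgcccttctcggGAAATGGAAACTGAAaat
*Oas1c*, chr5:120812561-120812634, minus strand: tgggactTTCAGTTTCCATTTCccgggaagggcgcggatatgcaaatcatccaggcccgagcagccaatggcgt
*Oas3*, chr5:120777668-120777787, minus strand: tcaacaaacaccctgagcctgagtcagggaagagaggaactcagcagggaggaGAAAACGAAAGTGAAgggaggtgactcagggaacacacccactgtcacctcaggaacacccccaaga
*Oasl1*, chr5:114923120-114923239, plus strand: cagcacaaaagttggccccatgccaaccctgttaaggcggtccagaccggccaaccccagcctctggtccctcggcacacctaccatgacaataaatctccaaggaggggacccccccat
*Oasl2*, chr5:114896814-114896933, plus strand: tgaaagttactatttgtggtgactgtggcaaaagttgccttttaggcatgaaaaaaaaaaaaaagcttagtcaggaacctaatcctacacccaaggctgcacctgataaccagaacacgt

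In 4 of the 6 members, 2 ISRE cores overlapped by 3 bases in a block of 15 bases. The block ran from −20 to −6 in *Oas1a*, from −18 to −4 in *Oas1g*, from −113 to −99 in *Oas1c* and from −75 to −61 in *Oas3*. *Oas1a* and *Oas1g* had the same block, GAAATGGAAACTGAA, and their windows differed at 1 of the 71 bases compared. *Oas1c* carried the reverse complement of this block, TTCAGTTTCCATTTC, so that the block lies on the strand of its divergent neighbour *Oas1b*, at −22 to −8 from the annotated *Oas1b* start. *Oas3* had a block of its own, GAAAACGAAAGTGAA. Over the 250 bases upstream of all 32851 RefSeq transcript starts, an ISRE core was found in 7.13%, and 2 or more in 0.47%. The block of *Oas1a* was found on either strand in 7 of these windows, which belong to *Oas1a*, *Oas1c*, *Oas1g*, *Apol9a* and *Apol9b*. A gamma-activated site, an element of interferon gamma signalling searched as TTCNNNGAA, was found in *Oas1a* at −98 to −90, and in 7.02% of all windows. *Oasl1* and *Oasl2* had neither set of letters in their 250 bases, which says nothing of sites farther away or of other spelling.

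**Figure D1:**
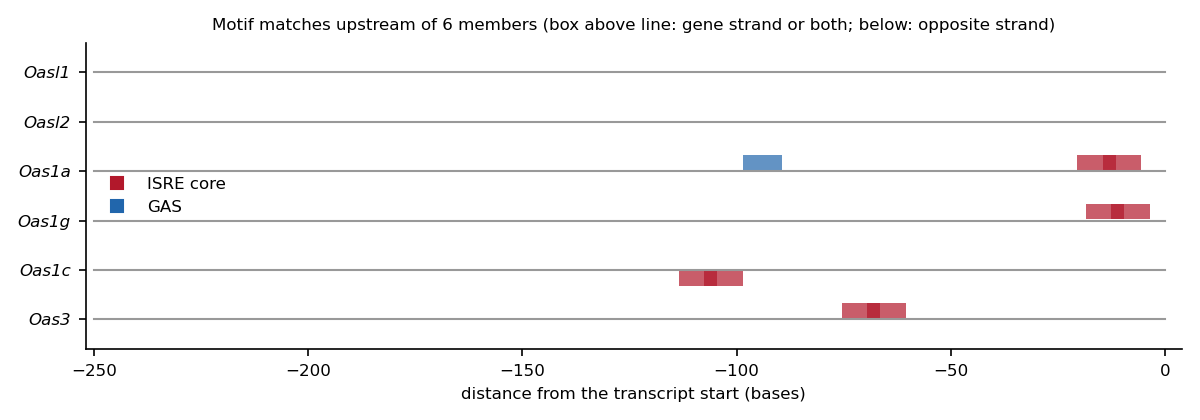
Matches of the ISRE core (red) and of the gamma-activated site (blue) in the 250 bases upstream of 6 members, plotted by distance from the transcript start in bases; boxes above a line are on the strand of the gene or on both, and boxes below it on the opposite strand. Overlapping pairs of ISRE cores are seen in *Oas1a*, *Oas1g*, *Oas1c* and *Oas3*, and the lines of *Oasl1* and *Oasl2* are empty.

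Libraries held 22346049 to 35512004 expected counts (reads assigned to genes, with reads that fit several genes shared out among them). Levels are given as CPM, counts scaled to a common library size, after TMM scaling, which also corrects for composition, and the 11678 genes whose level over the 16 libraries averaged 1 CPM or more were tested. The 6 hepatocyte markers (*Alb*, *Apoa1*, *Ttr*, *Serpina1a*, *Cyp2e1* and *Hnf4a*) summed to 30324 to 54009 CPM per library, and their lowest adjusted p with itaconate in edgeR's test was 0.395 (*Serpina1a*). Summed over 9 markers of macrophages and Kupffer cells, the level was 175 to 281 CPM in untreated, 153 to 235 CPM in itaconate, 228 to 321 CPM in lipid and 213 to 315 CPM in lipid + itaconate libraries, most of it from *Cd68*, while the Kupffer cell genes *Cd5l*, *Marco*, *Clec4f*, *Vsig4* and *Timd4* averaged 10.9, 8.63, 2.19, 0.744 and 0.179 CPM. Of 4 genes listed for plasmacytoid dendritic cells, which make much interferon, *Siglech* and *Ccr9* had at most 2 counts in a library and *Klk1* 0, while *Tcf4* averaged 12.0 CPM and was higher with lipid (log2 fold change 0.24, adjusted p = 0.0184). In differences between libraries of a group, lipid + itaconate replicate B stood apart, at 106 to 147 times counting noise (chi-square per gene) against 10.0 to 64.5 for all other pairs. Counts of members called that rest on it are given without it too.

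*Oasl1* had the highest level of the 7 members. To compare genes, levels were scaled to the length of all annotated exons of a gene merged, which may be longer than the transcripts present. On that scale *Oasl1* averaged 35.4 CPM per kb over the 16 libraries. *Oas1a* followed at 5.67 CPM per kb, then *Oasl2* at 1.55, *Oas1c* at 0.966, *Oas1g* at 0.463, *Oas3* at 0.259 and *Oas2* at 0.0969 CPM per kb. Before scaling, *Oasl2* (9.85 CPM) was near *Oas1a* (10.7 CPM). Its distance from *Oas1a* thus rests on merged lengths of 6374 bp for *Oasl2* and 1885 bp for *Oas1a*. *Oasl1* made up 80.4% of the summed level per kb of the 7 members, with a range of 75.2 to 86.4% over the libraries, and *Oas1a* 12.5% (8.90 to 16.6%). The shares of *Oasl1* and *Oas1a* did not overlap in any library, whereas those of *Oasl2* (1.16 to 5.30%) and *Oas1c* (1.39 to 4.19%) overlapped.

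Outside the 7 members, *Oas1b*, which the annotation calls a polymorphic pseudogene, averaged 7.02 ± 1.91 CPM (SD, n = 4) in untreated, 4.35 ± 1.22 in itaconate, 3.81 ± 1.12 in lipid and 3.76 ± 1.38 CPM in lipid + itaconate libraries. Per length it was at 2.38 CPM per kb over the 16 libraries, between *Oas1a* and *Oasl2*. Before scaling it was below *Oasl2*, at 4.73 against 9.85 CPM. *Oas1d*, *Oas1e* and *Oas1h* had 0 counts in all 16 libraries, and *Oas1f* had 1 count in 1 library. A count of 0 allows up to 3 counts, or 0.0861 to 0.140 CPM depending on the library, by counting error alone.

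*Oas1a* and *Oas1g* share reads. Of the stretches of 50 bases in *Oas1a* transcripts, 57.57% also occurred in *Oas1g* transcripts, and 45.25% the other way round. Their expected counts were whole numbers (within 0.01) in 1 of 16 libraries each, but their sum was whole in 16 of 16, whereas the counts of *Oas1c*, *Oas2*, *Oas3*, *Oasl1* and *Oasl2* were whole in every library. The division of reads between *Oas1a* and *Oas1g* is therefore an estimate of RSEM, and the values of each are uncertain to that extent.

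The first comparison asks what itaconate does to hepatocytes without added lipid. All 6 members that passed the filter were lower with itaconate than without it, in each of the 4 letters. *Oasl1*, *Oasl2*, *Oas1a* and *Oas1c* passed the test, which is 4 of 6 in a comparison where 5.14% of all genes tested were called in either direction and 2.86% were called lower. The median log2 fold change of the 6 members was −0.82, against 0.0027 for all genes tested. *Oas1g* was near the filter, at 1.08 CPM over the 16 libraries. It averaged 2.42 CPM in untreated, 1.13 in itaconate, 0.320 in lipid and 0.465 CPM in lipid + itaconate libraries. Its place in the counts and medians of the 6 thus rests on its untreated level. The test is edgeR's quasi-likelihood test with treatment and replicate letter as terms, with Benjamini-Hochberg adjustment over all genes tested, and all adjusted p-values given here come from it unless another test is named.

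*Oasl1* was at 154, 116, 138 and 164 CPM in untreated libraries A, B, C and D, and at 95.8, 72.4, 77.8 and 91.1 CPM with itaconate. Each itaconate library lay below each untreated one. The fitted change was −0.76 on the log2 scale (SE 0.048, adjusted p = 4.99e-07). On the linear scale *Oasl1* fell by 41.1%.

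*Oasl2* was at 22.9, 18.5, 13.0 and 28.2 CPM in untreated libraries A to D, and at 14.2, 7.52, 5.39 and 12.5 CPM with itaconate. The groups overlapped, since untreated C lay below itaconate A. The log2 fold change was −1.07 (SE 0.206, adjusted p = 0.00863).

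*Oas1a* was at 19.0, 13.1, 15.4 and 23.1 CPM without and at 14.8, 7.59, 8.61 and 14.5 CPM with itaconate. Untreated B was the low library of its group and lay below itaconate A and D, so the groups overlapped. The log2 fold change was −0.65 (SE 0.157, adjusted p = 0.0271).

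*Oas1c*, a copy of *Oas1* not known to be active as a synthetase, was at 3.54, 1.88, 2.90 and 4.03 CPM without and at 2.47, 1.44, 1.50 and 1.91 CPM with itaconate. Untreated B again lay within the itaconate range. Its log2 fold change was −0.74 (SE 0.196, adjusted p = 0.0398).

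*Oas1g* and *Oas3* did not pass the test. *Oas1g* was at 2.93, 1.98, 1.74 and 3.01 CPM without and at 1.31, 0.995, 0.861 and 1.36 CPM with itaconate, groups that did not overlap, with a log2 fold change of −1.11 (SE 0.359, adjusted p = 0.0876). *Oas3*, a synthetase with an affinity for long RNA, was at 3.86, 2.23, 2.40 and 4.85 CPM without and at 2.29, 1.03, 2.21 and 1.65 CPM with itaconate. Untreated B lay below itaconate A, so the groups overlapped, and the log2 fold change was −0.88 (SE 0.332, adjusted p = 0.137). *Oasl1* and *Oas1g* were the 2 members whose itaconate libraries all lay below all untreated ones, a pattern found in 3.33% of all genes tested.

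The count was 6, with *Oas1g* and *Oas3* added, without a filter on low counts (adjusted p = 0.00138 and 0.000805) and with only the libraries of both groups in the model (0.00127 and 0.0120). The call of *Oasl1* held in every alternative fit, with adjusted p-values up to 0.0368. Those of the other 3 did not: the count of 4 became 1 in a model of treatment alone, with no letter, 1 without the libraries of letter B or of letter D, and 2 (*Oasl1* and *Oasl2*) without any one of untreated A, C or D or itaconate B, C or D. Among the markers of macrophages and Kupffer cells, *Cd68* was lower with itaconate (log2 fold change −0.24, adjusted p = 0.0127) and the other 5 tested were not called. Of these 5, *Adgre1* (0.35), *Marco* (0.32), *Csf1r* (0.12) and *Cd5l* (0.05) had estimates above 0, and *Clec4f* (−0.14) below 0. The part of these cells in the result was not tested, and in bulk RNA fewer cells of a type cannot be told apart from less RNA per cell.

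**Figure D2:**
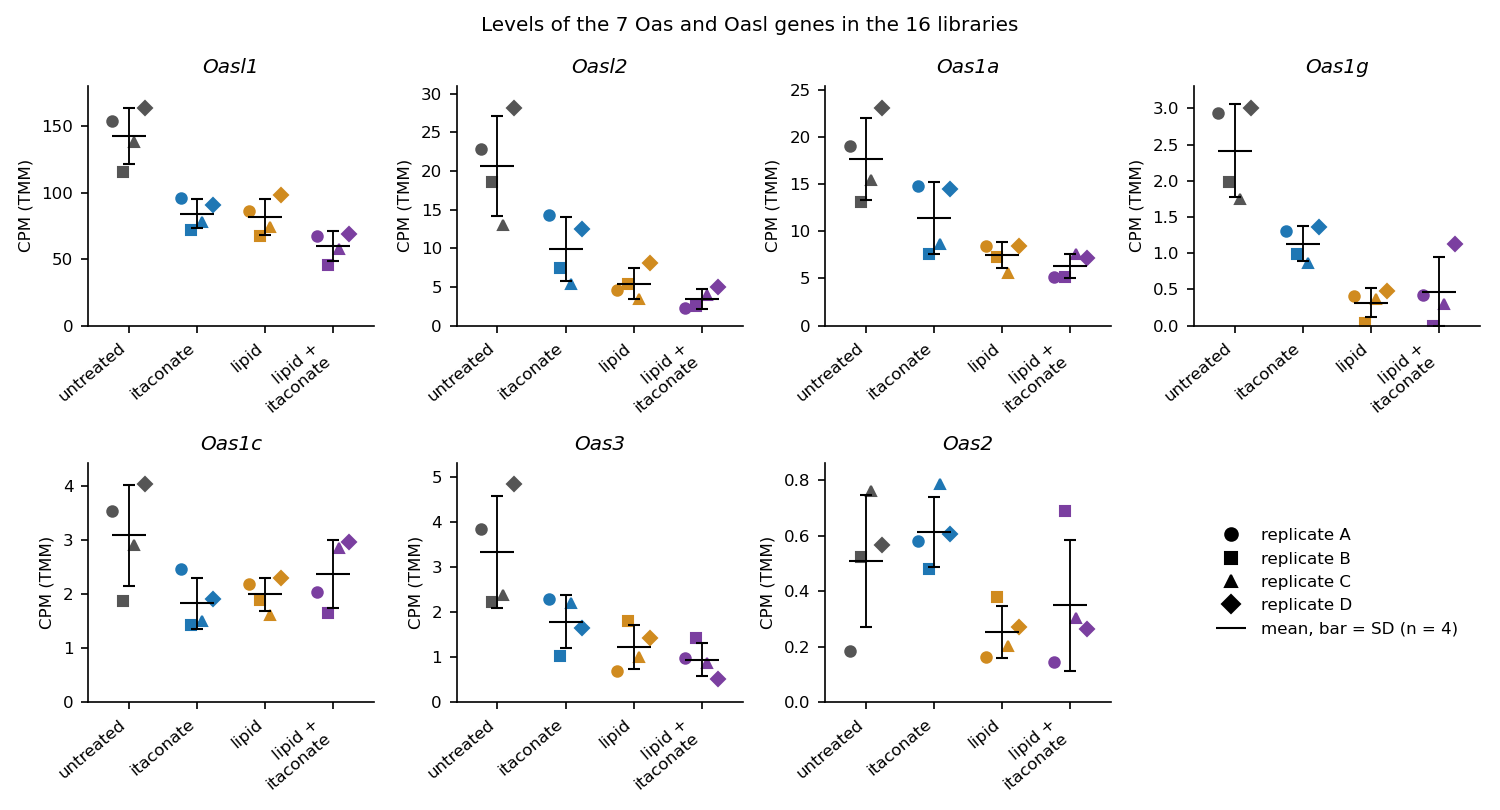
Level of each member in CPM after TMM scaling (y axis, from 0, a scale of its own for each gene) in the 4 treatment groups (x axis); symbols are the libraries by replicate letter, and bars give the mean ± SD (n = 4). *Oasl1* falls from 143 ± 21.0 CPM in untreated to 59.9 ± 11.0 CPM in lipid + itaconate hepatocytes, while *Oas2* stays under 0.8 CPM in every library.

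The second comparison asks the same of hepatocytes that also received lipid. *Oasl1* was the 1 member of 6 that passed the test between lipid + itaconate and lipid libraries, in a comparison where 2.64% of all genes tested were called and 1.38% were called lower. Under lipid, *Oasl1* was at 86.7, 67.8, 74.4 and 98.1 CPM in libraries A to D, and under lipid + itaconate at 67.6, 45.3, 57.6 and 69.1 CPM. All 4 letters were lower with itaconate, although the groups overlapped. The log2 fold change was −0.46 (SE 0.049, adjusted p = 0.000187), and without the replicate letter in the model the adjusted p rose to 0.292.

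The other members did not pass. *Oasl2* was at 4.68, 5.36, 3.44 and 8.17 CPM with lipid and at 2.24, 2.60, 3.96 and 4.99 CPM with both, lower in 3 of 4 letters (log2 fold change −0.63, SE 0.247, adjusted p = 0.194). Lipid + itaconate replicate C was the exception, and without that library *Oasl2* passed too, which made the count 2. *Oas1a* was at 7.44 ± 1.37 CPM with lipid and 6.28 ± 1.28 CPM with both (SD, n = 4, adjusted p = 0.491), *Oas3* at 1.23 ± 0.487 and 0.950 ± 0.367 CPM (adjusted p = 0.654), and *Oas1c* at 2.00 ± 0.308 and 2.37 ± 0.636 CPM (adjusted p = 0.592). *Oas1g* was at 0.320 ± 0.193 and 0.465 ± 0.476 CPM (adjusted p = 0.700), and its 0 counts in lipid + itaconate replicate B allow up to 0.115 CPM. Without replicate B of lipid + itaconate, the library that stood apart, the count of members called was 1 as well. The number of members with all 4 lipid + itaconate libraries below all 4 lipid libraries was 0, against 2.69% of all genes tested.

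Whether itaconate acted differently without and with lipid was tested as the interaction of both treatments. The itaconate effect was nearer to 0, or above it, with lipid in all 6 members, with a median difference of 0.47 on the log2 scale, but none had an adjusted p under 0.05, in a test that called 0.0171% of all genes. Leaving out lipid + itaconate replicate B left the count of calls at 0. For *Oasl1* the interaction was 0.31 (SE 0.068, adjusted p = 0.191) and had the same sign in 4 of 4 letters, as had that of *Oas1c* (0.97, SE 0.279, adjusted p = 0.331). The largest estimate was that of *Oas1g* (1.58, SE 0.652, adjusted p = 0.507). At an unadjusted p under 0.05 the count was 3 of 6, against 1020 of all 11678 genes. With DESeq2 *Oasl1* passed, and in edgeR with no filter on low counts *Oasl1* and *Oas1c* did.

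**Figure D3:**
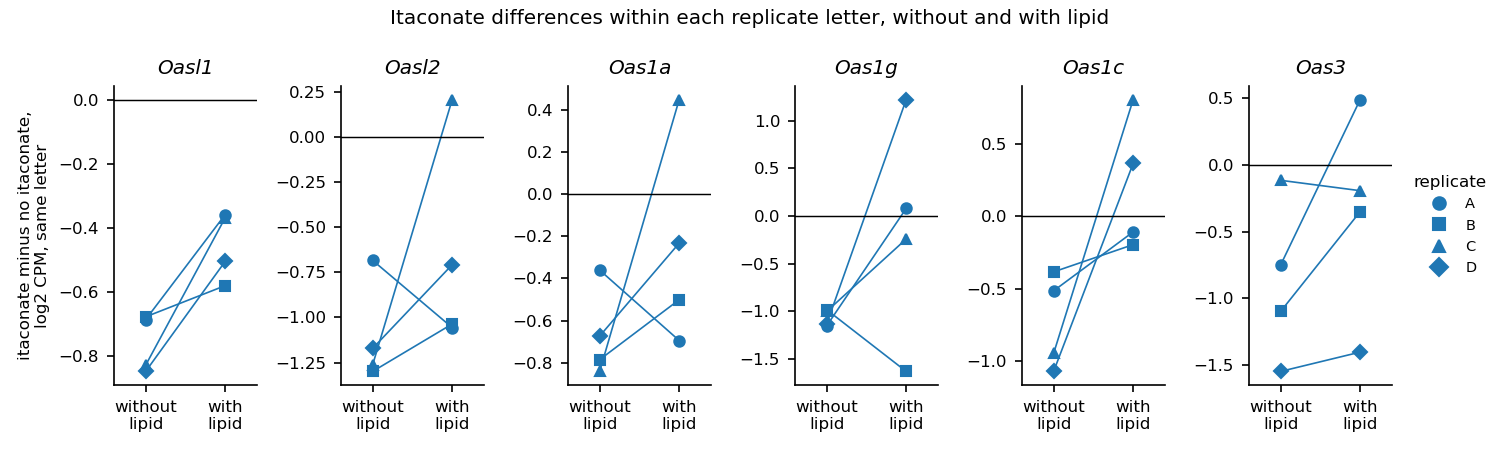
Difference in log2 CPM between the libraries with and without itaconate of the same replicate letter (y axis, a scale of its own for each gene), without lipid (left) and with lipid (right), for the 6 tested members; lines join the same letter. All 24 differences without lipid are below 0, and with lipid only *Oasl1* has all 4 letters below 0.

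The third comparison asks what lipid alone does. All 6 tested members were lower with lipid than without, and all 6 passed the test, in a comparison where 47.7% of all genes tested were called and 23.4% were called lower. The median log2 fold change of the members was −1.32, against 0.0088 for all genes tested. The itaconate and lipid comparisons share the untreated libraries, so that a high or low untreated library moves both alike.

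*Oas1g*, which passed the filter through its untreated level, had the largest fall of the 6. It was at 0.407, 0.0378, 0.364 and 0.472 CPM in lipid libraries A to D, where untreated libraries had 1.74 to 3.01 CPM, a log2 fold change of −2.96 (SE 0.442, adjusted p = 6.52e-05) or 7.79-fold. Since it shares reads with *Oas1a*, which kept more of its level, this size rests on how the reads were divided. *Oas1a* was at 8.42, 7.33, 5.54 and 8.47 CPM with lipid, all below the lowest untreated library (log2 fold change −1.23, SE 0.163, adjusted p = 2.22e-05).

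*Oasl2* fell by 1.93 on the log2 scale (SE 0.219, adjusted p = 4.99e-06), with lipid libraries from 3.44 to 8.17 CPM and untreated libraries from 13.0 to 28.2 CPM. *Oas3* fell by 1.41 (SE 0.350, adjusted p = 0.00387), from 3.33 ± 1.25 to 1.23 ± 0.487 CPM. *Oasl1*, at 81.7 ± 13.4 CPM with lipid, fell by 0.82 (SE 0.048, adjusted p = 1.05e-08). *Oas1c* changed least, by −0.60 (SE 0.196, adjusted p = 0.0191), and was lower in 3 of 4 letters. Its call was lost in 8 of 19 alternatives, among them the model without the replicate letter (adjusted p = 0.0615). Without the libraries of letter A, C or D its adjusted p was 0.0520, 0.0604 or 0.128. All 4 lipid libraries lay below all 4 untreated ones in 5 of the 6 members, *Oas1c* being the exception, against 14.8% of all genes tested. Of the macrophage and Kupffer cell markers, *Adgre1*, *Cd5l* and *Marco* were lower and *Cd68* was higher with lipid, and 2 of the 6 hepatocyte markers were lower. Their part in the change of the family was not tested.

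Lipid also lowered most of the tested members in the presence of itaconate. Between lipid + itaconate and itaconate libraries 4 of 6 members passed the test, all lower, in a comparison where 47.2% of all genes tested were called and 24.4% were called lower. These were *Oasl2* (log2 fold change −1.49, SE 0.235, adjusted p = 0.000122), *Oas1g* (−1.38, SE 0.438, adjusted p = 0.0169), *Oas1a* (−0.83, SE 0.167, adjusted p = 0.000922) and *Oasl1* (−0.51, SE 0.049, adjusted p = 1.33e-06). The call of *Oas1g* was lost in 5 of 19 alternatives, among them the model without the replicate letter (adjusted p = 0.0797), the fit of only the libraries of both groups (0.0510) and the fit without lipid + itaconate replicate A (0.0554). *Oas3* had a log2 fold change of −0.92 (adjusted p = 0.0548), and without lipid + itaconate replicate B it passed too, for a count of 5, while *Oas1c* had one of 0.37 (adjusted p = 0.141). *Oas1a*, *Oasl1* and *Oasl2* had no overlap between the groups, a pattern found in 14.5% of all genes tested.

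**Figure D4:**
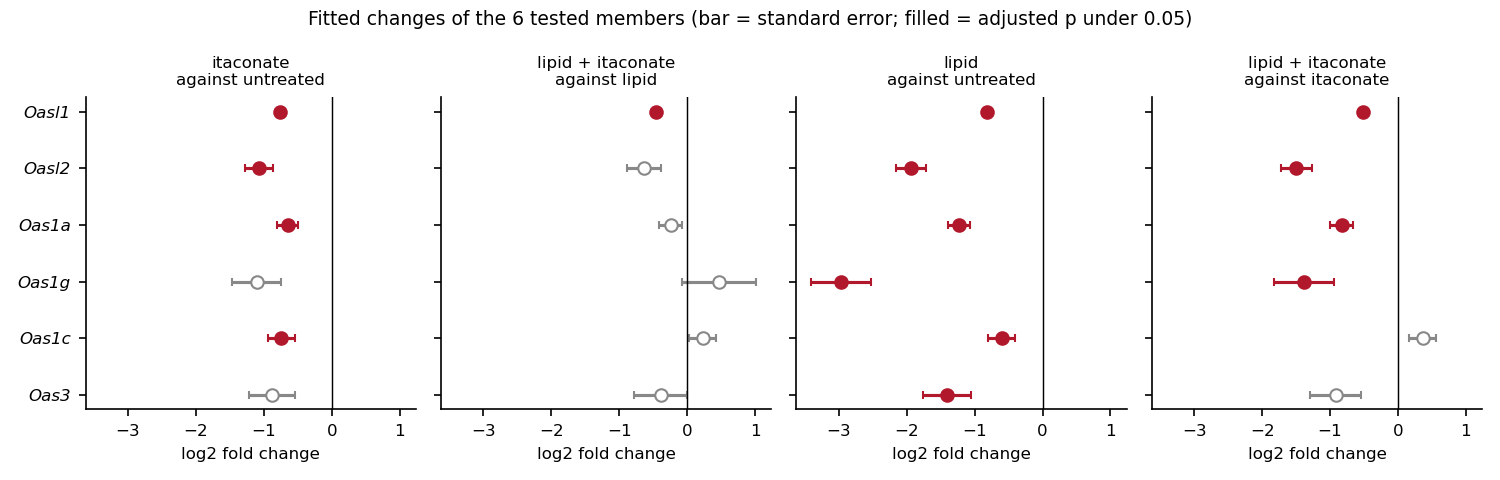
Fitted log2 fold change (x axis) of the 6 tested members in the 4 pairwise comparisons, with the standard error as a bar; filled red points passed edgeR's test at an adjusted p of 0.05. All 6 points are filled for lipid against untreated, 4 for itaconate against untreated, 1 for lipid + itaconate against lipid and 4 for lipid + itaconate against itaconate.

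*Oas2* was too low to test. It had 4 to 21 counts per library, or 0.143 to 0.786 CPM, and was under the filter. In the same model without a filter its log2 fold change was 0.34 with itaconate (adjusted p = 0.883) and −0.98 with lipid (adjusted p = 0.135), so that neither passed. *Oas2* was lower in 4 of 4 letters with lipid (unadjusted p = 0.0366) and in 3 of 4 with lipid on top of itaconate (0.0340). These p-values come from the fit of 25152 genes and do not compare with those of the other members.

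Adding up all *Oas1* rows removes the division of reads between *Oas1a* and *Oas1g*. The sum also takes in *Oas1b* and *Oas1c*, which share few or no stretches of 50 bases with them, so it mixes separate genes. The summed *Oas1* level fell by 0.70 on the log2 scale with itaconate (SE 0.118, adjusted p = 0.00336) and by 1.15 with lipid (SE 0.121, adjusted p = 2.35e-06). With itaconate on top of lipid the change was −0.09 (SE 0.125, adjusted p = 0.749), and with lipid on top of itaconate it was −0.54 (SE 0.122, adjusted p = 0.00218).

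In their pattern over the 16 libraries the members were alike to different degrees. Pearson's r between the log2 CPM of 2 members ran from 0.348 (*Oas1c* and *Oas3*) to 0.960 (*Oas1a* and *Oasl2*), with a median of 0.740 over 15 pairs. These values describe libraries that share treatment and letter. Among the genes most like the mean profile of the tested members were *Tgtp1* (r = 0.982), *Samd9l* (0.976), *Zbp1* (0.974), *Ifit1* (0.973), *Tor3a* (0.972), *Parp12* (0.971), *Parp9* (0.966), *Crybg1* (0.966) and *Ifit3b* (0.965). Taken singly, *Oasl1* was most like *Ifit1* (0.989), *Ifit3* and *Ifit3b*, which encode interferon-induced RNA-binding proteins. *Oasl2* was most like *Zbp1* (0.988), *Irf7* and *Csn3*, *Oas1a* most like *Samd9l* (0.975), *Tgtp1* and *Ifi47*, and *Oas1c* most like *Mov10* (0.896), *Herc6* and *Tap1*. *Oas1g* was most like *Txndc5* (0.896), *Ahnak2* and *Ndst2*. The loosest neighbours among the tested members were those of *Oas3*, with *Raver1* (0.840), *Brd9* and *Kat14*.

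The genes around the family in its pathway were counted from lists. Their counts stand beside a background in which 5.14% of all genes tested were called with itaconate, 2.64% with itaconate on top of lipid and 47.7% with lipid, 23.4% being lower with lipid. Of 4 tested genes whose products act alongside the synthetases or on their products, *Zc3hav1*, which encodes the zinc-finger antiviral protein ZAP, was lower with itaconate (log2 fold change −0.22, adjusted p = 0.00477). With lipid *Zc3hav1* (−0.36) and *Abce1* (−0.11), a factor of ribosome recycling, were lower, and *Pde12* (0.22), whose product degrades oligoadenylates, was higher. Itaconate on top of lipid changed 0 of the 4 in edgeR and in DESeq2, with 0 at an unadjusted p under 0.05.

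Upstream, interferon genes themselves were barely seen. Of 20 rows for interferons of types I, II and III, 17 had 0 counts in all libraries, and *Ifnb1*, *Ifnk* and *Ifnz* reached 3, 5 and 8.93 expected counts in a library at most. Of the 14 tested genes for interferon receptors and signal transducers, those lower with itaconate included *Usp18*, a feedback inhibitor of the receptor (log2 fold change −0.71, adjusted p = 1.83e-06), and *Irf9* (−0.18, adjusted p = 0.0441). The receptor genes *Ifnar1* and *Ifnar2* were not called with itaconate. On top of lipid, itaconate lowered *Usp18* (−0.39, adjusted p = 0.00308) and raised *Socs3* (0.41). Lipid alone, which lowered 23.4% of all genes tested, lowered 9 of the 14, among them *Ifnar2* (−0.19, adjusted p = 0.00423). It raised 1, *Ifnar1* (0.22, adjusted p = 0.00465). Of 6 interferon regulatory factors, itaconate lowered *Irf7* (−0.59, adjusted p = 0.0020) and *Irf5* (−0.55, adjusted p = 0.0130), lipid lowered 4, and itaconate on top of lipid raised 1, *Irf2* (0.21).

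Other sensors of double-stranded RNA were also lower. Of 9 tested genes for these sensors and their adaptors, 7 were lower with itaconate: *Zbp1* (log2 fold change −0.77), *Dhx58* (−0.68), *Ddx58* (−0.59), which encodes RIG-I, *Tlr3* (−0.56), *Ifih1* (−0.49), which encodes MDA5, *Eif2ak2* (−0.40), which encodes the kinase PKR, and *Adar* (−0.30). Their adjusted p-values ran from 0.000361 (*Dhx58*) to 0.0153 (*Adar*). The adaptors *Mavs* (−0.06) and *Ticam1* (0.03) were not called. The same 7 genes were lower with lipid, which raised *Mavs* (0.79, adjusted p = 1.05e-07) and *Ticam1* (0.58, adjusted p = 3.01e-06). With itaconate on top of lipid, *Ticam1* alone was called, and lower (−0.24, adjusted p = 0.0481). Of 3 tested genes of the DNA-sensing cGAS-STING pathway, itaconate changed 0 in edgeR and in DESeq2, with 1 (*Ikbke*) at an unadjusted p under 0.05, and lipid lowered *Tbk1* and *Ikbke* and raised *Cgas* (1.60, adjusted p = 4.95e-05). In a model without the letter, the itaconate calls fell to 2 of the 9 sensors, 0 of the 14 receptors and transducers, 0 of the 6 regulatory factors and 0 of the 4 genes that act alongside the synthetases, and the calls with itaconate on top of lipid fell to 0 for the sensors, the receptors and transducers and the regulatory factors. Without the libraries of letter D the itaconate count of the sensors was 3. *Apol9a* and *Apol9b*, which carry the promoter block of *Oas1a* and were picked for that sequence, were also lower with itaconate. Their log2 fold changes were −0.38 (adjusted p = 0.00142) and −0.32 (adjusted p = 0.00255), and as close copies they may share reads. Whether the block has a part in these changes was not tested.

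**Figure D5:**
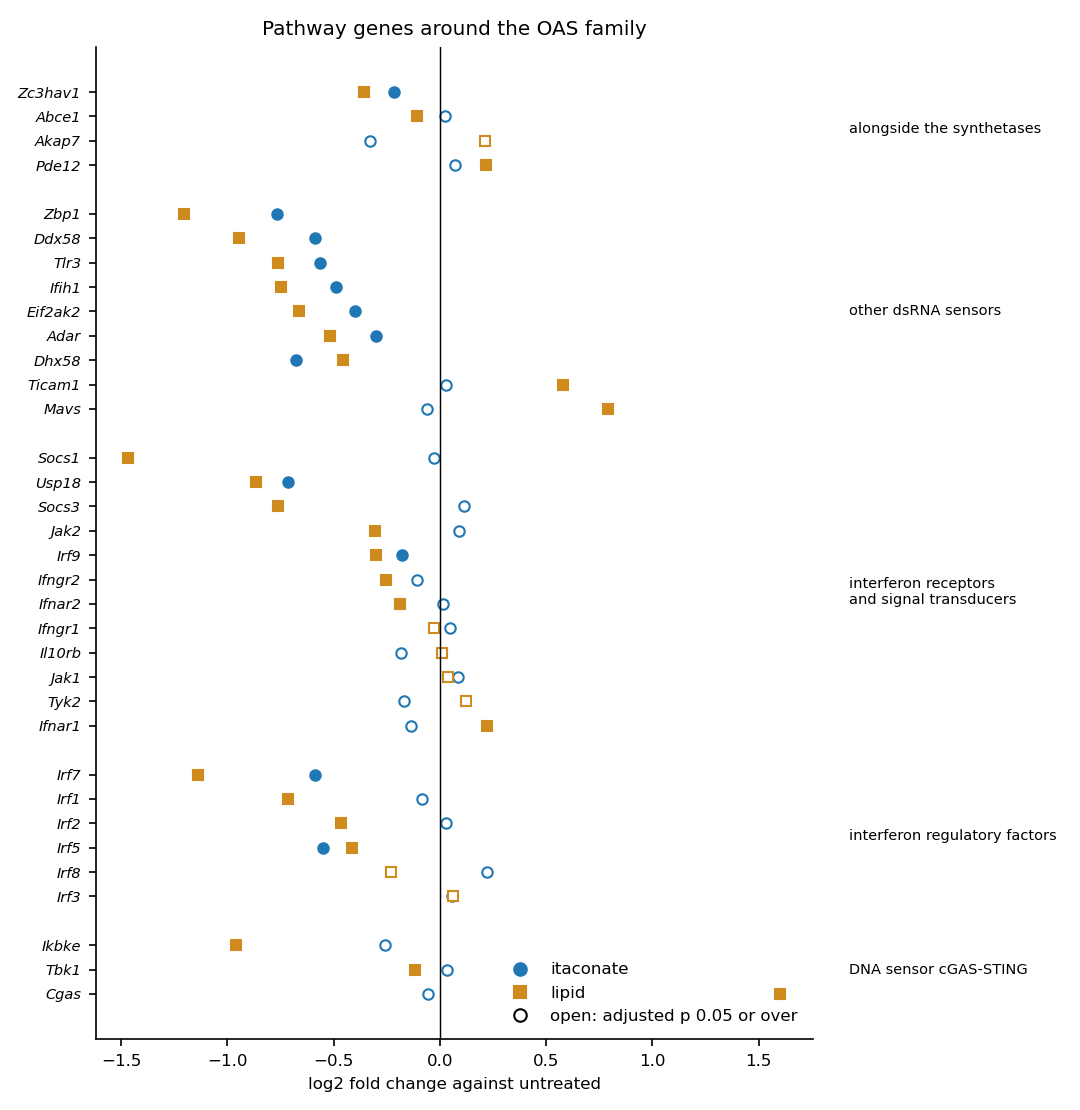
Log2 fold change against untreated hepatocytes (x axis) of genes of 5 pathway lists (y axis) with itaconate (blue circles) and with lipid (orange squares); filled points have an adjusted p under 0.05, and both comparisons share the untreated libraries. In the list of double-stranded RNA sensors 7 genes lie below 0 with both treatments, while *Mavs* and *Ticam1* lie above 0 with lipid.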

How the data were processed

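RNA of 16 hepatocyte libraries was sequenced after mRNA capture with a stranded kit. Per the labels and methods, the authors trimmed reads with cutadapt 1.18, aligned them to mm10 with STAR 2.7.0f and counted them with RSEM 1.3.1, and the deposited values are expected counts per gene, not normalized, on GENCODE genes. RSEM divides reads that fit several genes, which affects *Oas1a* and *Oas1g*. Positions are from GENCODE (GRCm38) and promoters from RefSeq (GRCm38.p6). Here counts were rounded, scaled by TMM and tested in edgeR 4.0.16 (R 4.3.3) with the quasi-likelihood test, for genes that averaged 1 CPM or more, with treatment and replicate letter as terms and Benjamini-Hochberg adjustment at 0.05. The study removed a batch with a linear model without naming it. The letters were taken to pair the libraries because all 24 correlations of same-letter deviations from group means were over 0.1 (0.138 to 0.469). Pairs with other letters and of other groups had a median of −0.0996 and ran from −0.385 to 0.176, so both ranges overlapped. Deviations within a group sum to 0, so positive same-letter values push the others below 0. The contrast with that median thus adds no separate support. In simulated counts for itaconate against untreated over 11678 genes, the test was checked with known changes. These counts were drawn without letter effects or lipid changes, so the check does not bear on the letter as a term. DESeq2 1.42.0, limma 3.58.1, other filters and scaling, no letter, and libraries left out were alternatives. The members and gene lists were chosen with earlier results of these data known. Named are the members, list genes called in an itaconate comparison or, where 5 or fewer, with lipid, genes among the 10 most like the mean member profile and 3 per member. Other genes named are the cell type markers, *Apol9a* and *Apol9b*. Some pathway and other genes are not reported here.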

Additional observations from a re-analysis of the deposited data

How the results depend on the processing

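Over the 621 alternative values of the tested members, 563 kept direction and side of the threshold, 38 lost and 17 gained a call, and 3 changed sign. Without the replicate block, the members called with itaconate went from 4 to 1 and those with itaconate on top of lipid from 1 to 0. Without the libraries of letter B or of letter D the itaconate count was also 1, and without letter C the count on top of lipid was 2. With only the libraries of both groups, or no filter, the itaconate count was 6. No filter gave 2 for itaconate on top of lipid and 2 for the interaction, and DESeq2 gave 1 for the interaction. The fit with no filter took the spread as far smaller, so its counts do not compare with the others. With 1 library left out at a time, the counts ran from 2 to 4 (itaconate), 1 to 2 (itaconate on top of lipid), 5 to 6 (lipid), 4 to 5 (lipid on top of itaconate) and 0 to 0 (interaction). The change of *Oas1g* with itaconate on top of lipid turned negative in limma-trend (−0.15) and without letter D (−0.080), and ranged from −0.21 to 0.77 over alternatives, with the lowest value without lipid + itaconate replicate D. Its cause was not tested. Depth limits *Oas2* and *Oas1g*, which have few counts per library.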
